A study of Rattus norvegicus with 6 samples.

Results

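Ryr2 and Atp2a2 encode the calcium release channel and the calcium pump of the cardiac sarcoplasmic reticulum, and both transcripts were followed here in neonatal rat ventricular cardiomyocytes exposed to erastin. The 2 genes were picked by Ensembl identifier, ENSRNOG00000017060 for Ryr2 and ENSRNOG00000001285 for Atp2a2, out of 34052 features in the deposited expression table. The rule names the identifiers and uses no measured value, but the genes were proposed with earlier results of these data known. Both passed the filter on low values that left 13576 tested features.

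Cultured ventricular muscle cells of newborn rats were kept as control (n = 3 libraries) or given 10 µM erastin for 24 h (n = 3 libraries), and poly(A) RNA was sequenced. Erastin, an inhibitor of the cystine/glutamate antiporter, is widely used to trigger ferroptosis, an iron-dependent cell death with lipid peroxidation, and the comparison asked how expression changes with it. The table sets erastin against vehicle, and neither the vehicle nor rat strain, sex or pooling of litters is given in the labels. Whether replicates were independent cultures is also not stated, so p-values reflect only library-to-library spread, and this may be technical. Levels are in FPKM, fragments scaled by the counted length of the gene and by the total of the library. The library totals recovered from these values were 11126968 to 14914827 counted units. These are called reads below, although the libraries were paired-end and the sources used here do not say whether single reads or read pairs were counted. Identifiers of the other features were not paired with gene names, so the labelled cell type was not checked against its markers, and the partners and regulators of both proteins were not analysed here.

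In each heartbeat, calcium entering through the L-type channel opens the ryanodine receptor RyR2 on the sarcoplasmic reticulum, and the calcium that flows out of this store drives contraction. SERCA2, the product of Atp2a2, then pumps calcium back into the store with the energy of ATP, which lets the cell relax and refills the store for the next release. Release and uptake thus work on the same pool of calcium from opposite sides. Both transcripts are abundant in heart muscle, where lower SERCA2 is a well-known feature of the failing heart and inherited RyR2 defects cause arrhythmia.

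Both transcripts fell with erastin, and Ryr2 fell further than Atp2a2. Ryr2 was 3.72-fold lower in mean FPKM and Atp2a2 was 1.82-fold lower. The level of Atp2a2 relative to Ryr2, both per length, was therefore about doubled, at 8.36 ± 0.220 (SD, n = 3) in control against 17.1 ± 0.685 (SD, n = 3) with erastin.

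The promoter windows of both genes are shown as a description, and a part of the promoters in the falls was not tested. Each window is the 300 bases from 250 before to 50 after the annotated start, printed 5′ to 3′ on the plus strand from RefSeq, build GRCr8, with motif matches in capitals. The Ryr2 window lies at chr17:63081277-63081576 and the Atp2a2 window at chr12:39733269-39733568.
Ryr2: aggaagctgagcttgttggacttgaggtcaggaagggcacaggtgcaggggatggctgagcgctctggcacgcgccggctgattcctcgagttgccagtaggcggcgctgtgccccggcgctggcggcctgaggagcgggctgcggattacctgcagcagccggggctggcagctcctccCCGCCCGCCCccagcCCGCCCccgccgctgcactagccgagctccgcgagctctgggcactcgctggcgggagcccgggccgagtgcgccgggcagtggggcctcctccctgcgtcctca
Atp2a2: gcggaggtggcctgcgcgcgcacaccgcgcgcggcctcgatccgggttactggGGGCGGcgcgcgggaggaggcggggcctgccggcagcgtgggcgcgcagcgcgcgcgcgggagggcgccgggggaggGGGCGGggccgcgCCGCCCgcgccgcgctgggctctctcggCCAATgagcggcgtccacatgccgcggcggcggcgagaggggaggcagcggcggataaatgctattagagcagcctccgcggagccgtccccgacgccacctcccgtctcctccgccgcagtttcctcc

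The capitals mark GGGCGG, the GC box bound by Sp1 family factors, read on either strand, and in Atp2a2 also CCAAT, the CCAAT box. The Ryr2 window held 3 GC boxes, all on the minus strand, starting 70, 66 and 55 bases before the start, and the pair at 70 and 66 overlapped. The Atp2a2 window held 3 GC boxes, of which 2 were on the plus strand at 197 and 120 bases and 1 was on the minus strand at 107 bases before the start. Its CCAAT box lay 79 bases before the start. A GC box was found in 33.1% and a CCAAT box in 37.5% of 33465 RefSeq rat windows of this length, so neither is rare.

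Neither window held the letters TATAAA (in 14.2% of all windows), CACGTG (6.42%), CATTCC (14.2%), TGACNNNGC (12.1%), TGATGCAA (0.795%) or AGATAA (11.6%) on either strand. The letters are, in that order, 1 form each of the TATA box, E-box, M-CAT, antioxidant response, amino acid response and GATA elements. The 1 form of the MEF2 element that was searched (3.83%) was also absent from both windows. Other forms of these elements, such as E-boxes with other central bases, were not searched. Both windows were rich in G and C. The Atp2a2 window was 79.0% G or C with 52 CpG pairs, at or above 98.9% and 99.6% of all windows. The Ryr2 window was 73.0% G or C with 28 CpG pairs, at or above 95.4% and 88.5% of all windows. The median window had 51.7% G or C and 7 CpG pairs.

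Ryr2, the release channel, was at 140.3, 148 and 155 FPKM in control replicates 1, 2 and 3. It was at 40.1, 42.2 and 36.8 FPKM in erastin replicates 1, 2 and 3. All 3 erastin libraries lay far below all 3 control libraries, with the lowest control value still 3.32 times the highest erastin value. The control mean was 148 ± 7.49 FPKM and the erastin mean 39.7 ± 2.75 FPKM (SD, n = 3), so that 26.8% of the control level remained. The log2 fold change was -1.87 (SE 0.059, 95% interval -2.01 to -1.74, limma adjusted p = 1.08e-07). An exact two-sided permutation test of the 6 FPKM values gave p = 0.1, the smallest that 3 against 3 libraries allow.

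Atp2a2, the uptake pump, was at 1207, 1227 and 1271 FPKM in control replicates 1, 2 and 3. It was at 712, 692 and 628 FPKM in erastin replicates 1, 2 and 3. The groups did not overlap here either, and the lowest control value was 1.70 times the highest erastin value. The control mean was 1235 ± 32.4 FPKM and the erastin mean 678 ± 43.7 FPKM (SD, n = 3), so that 54.9% of the control level remained. The log2 fold change was -0.87 (SE 0.049, 95% interval -0.98 to -0.75, limma adjusted p = 2.23e-06), with an exact permutation p of 0.1, again the smallest possible.

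**Figure D1:**
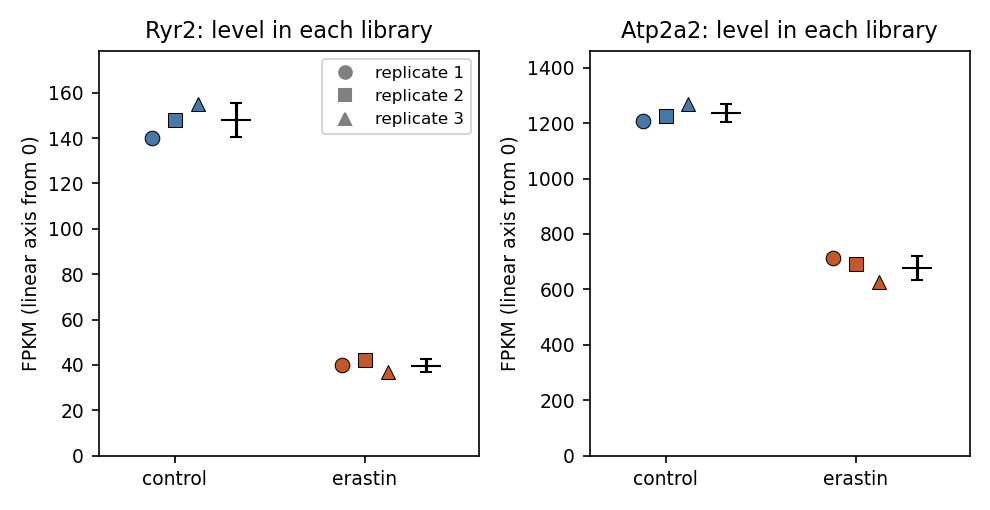
FPKM of Ryr2 (left) and Atp2a2 (right) in each of 3 control and 3 erastin libraries, on linear axes from 0 with a scale for each gene; marker shapes give the replicate, and the bar beside each group is the mean with its SD. Ryr2 went from 140.3 to 155 FPKM down to 36.8 to 42.2 FPKM, and Atp2a2 from 1207 to 1271 FPKM down to 628 to 712 FPKM.

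Falls of this kind were common in these cells, so the size of the change says more than the call. Of all tested features, 66.4% passed a Benjamini-Hochberg adjusted p of 0.05 in limma, with 24.1% falling and 42.3% rising, and in 26.3% all erastin libraries lay below all control libraries. At that adjusted p, a fall of at least 1 on the log2 scale was reached by 4.75% of tested features, Ryr2 among them and Atp2a2 not. Under other scalings of the libraries Atp2a2 lay nearer this limit, and its largest fall, -1.01, passed it. Ryr2 had the 111th largest fall, so 0.818% of tested features fell as far or further. Atp2a2 had the 880th largest fall, matched or passed by 6.48%. In bulk RNA, fewer cardiomyocytes in the culture and less of these transcripts per cell cannot be told apart.

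FPKM are shares of a library, and the median tested feature rose by 0.13 on the log2 scale. Centring every library on the median log2 ratio gave a log2 fold change of -2.0 for Ryr2 (limma adjusted p = 9.65e-08) and of -1.0 for Atp2a2 (limma adjusted p = 1.24e-06). The centred values amount to 4.0-fold and 1.99-fold lower levels. Both genes therefore fell with either scaling, and centring made both falls larger. At a limma adjusted p under 0.05, centring raised the share of features that fell to 31.6%. Of the changed features 49.8% rose in place of 63.7%.

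Whether the 2 genes moved by different amounts was asked within each library, where library scaling cancels apart from the pseudocount. Atp2a2 FPKM divided by Ryr2 FPKM was 8.61, 8.29 and 8.18 in control replicates 1, 2 and 3. It was 17.8, 16.4 and 17.1 in erastin replicates 1, 2 and 3. The ratio was higher in every erastin library than in any control library, with no overlap. How often the ratio of 2 other features separates in this way was not computed. At a limma adjusted p under 0.05, 66.4% of tested features changed with erastin. On the scale of log2(FPKM + 1), Ryr2 minus Atp2a2 averaged -3.05 ± 0.037 (SD, n = 3) without and -4.06 ± 0.057 (SD, n = 3) with erastin. The difference of -1.01 is many times these SDs, and the exact two-sided permutation p was 0.1, the smallest for this design.

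**Figure D2:**
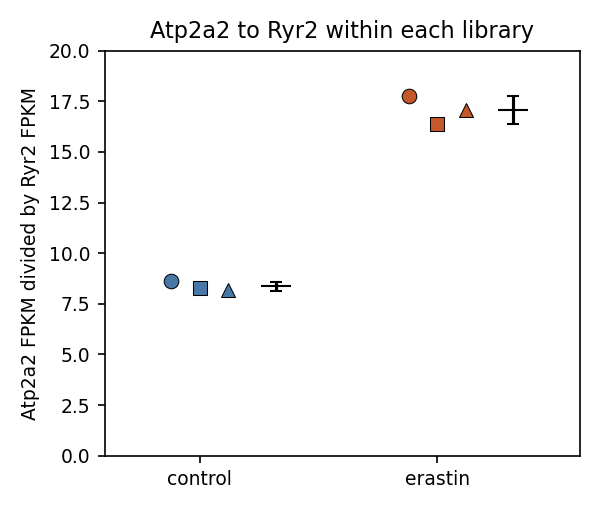
Atp2a2 FPKM divided by Ryr2 FPKM in each library (vertical axis from 0, no unit), with the replicate shown by circle (1), square (2) or triangle (3) and the mean and SD beside each group. Control libraries lie between 8.18 and 8.61 and erastin libraries between 16.4 and 17.8.

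The order of the 4 group levels, all per length, was Atp2a2 in control, Atp2a2 in erastin, Ryr2 in control and Ryr2 in erastin libraries, and no neighbours in that order overlapped. Atp2a2 stayed among the most abundant transcripts, at rank 26 to 31 of the tested features in control and rank 68 to 91 in erastin libraries. Ryr2 moved further down the order, from rank 498 to 572 in control to rank 2543 to 2936 in erastin libraries. In FPKM the larger loss was that of the pump transcript, 557 against 108.

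These levels rest on many reads. Ryr2 was covered by 23898, 32703 and 26446 reads in the control libraries (replicates 1 to 3) and by 6619, 7514 and 6057 reads in the erastin libraries, over a counted length of 14805 bases. Atp2a2 had 68337, 90048 and 71919 reads in control and 39055, 40915 and 34396 reads in erastin replicates, over 4919 bases. Control replicate 2 was the deepest library, and its reads, but not its FPKM, stand out. Of all reads in a library, Ryr2 took a mean of 0.219% in control and 0.0588% in erastin libraries, and Atp2a2 took 0.608% and 0.333%. Counting error alone, with each counted unit taken as independent, was 0.333% to 1.28% of a value, below the coefficients of variation between libraries of a group. These were 5.07% and 6.94% for Ryr2 and 2.62% and 6.45% for Atp2a2, in control and erastin libraries.

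Within a group the pair deviated partly together. Control replicate 1 was lowest and control replicate 3 highest for both genes, with deviations from the control mean of -5.14% and 4.98% for Ryr2 and of -2.26% and 2.88% for Atp2a2. Erastin replicate 3 was lowest for both, with deviations from the erastin mean of -7.38% for Ryr2 and -7.25% for Atp2a2. The highest erastin library was replicate 2 for Ryr2 and replicate 1 for Atp2a2. With 3 libraries a group these orders are a description only.

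Set against transcripts of similar level, Ryr2 stood near the lower edge. Of 1760 tested features within 2-fold of Ryr2 in mean FPKM, 508 fell and 917 rose at a limma adjusted p under 0.05. Their median log2 fold change was 0.15, and Ryr2 had the 10th largest fall. Of 112 features within 2-fold of Atp2a2, 44 fell and 58 rose at that adjusted p. The median of the 112 was 0.14, and Atp2a2 had the 18th largest fall. Both counts include the gene itself. Of the 100 most abundant features, which include Atp2a2, 24 fell as far as Atp2a2 or further, at any p and with Atp2a2 counted. At that adjusted p, 20 of the 100 fell by at least 1 on the log2 scale.

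**Figure D3:**
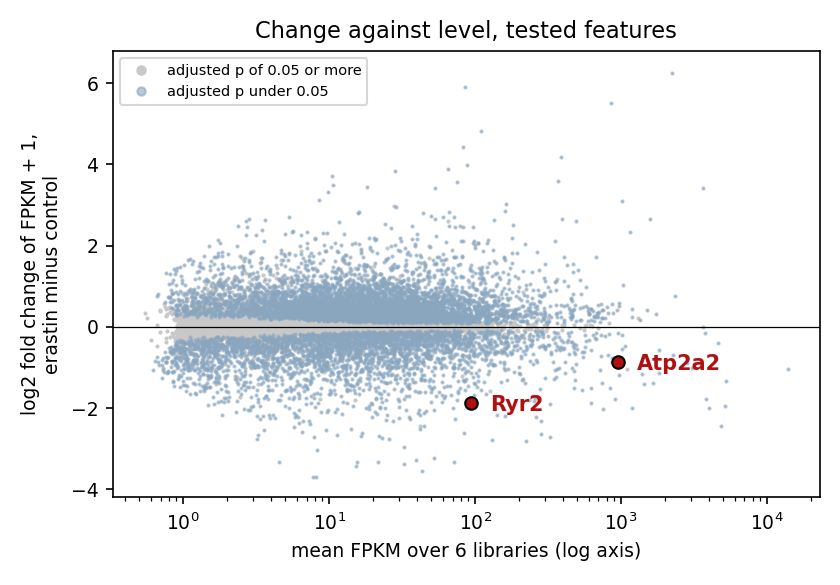
Log2 fold change of FPKM + 1 (erastin minus control) against the mean FPKM over 6 libraries (log axis) for 13576 tested features, in blue at an adjusted p under 0.05 and in grey otherwise; Ryr2 and Atp2a2 are red points whose 95% intervals lie within the marker. Ryr2 at -1.87 lies below most features of its level, and Atp2a2 at -0.87 lies at the abundant end.

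Ryr2 is a long transcript, and the tested features of similar length are given beside it as a description, with no test of their difference from other features. The 84 tested features with a counted length within 1.5-fold of Ryr2 had a median log2 fold change of -0.02, against 0.13 over all tested features. At a limma adjusted p under 0.05, 32 of these 84 fell (38.1%, against 24.1% of all), 24 rose and 5 fell by at least 1. Ryr2 had the 2nd largest fall of the 84. Among 2787 features within 1.5-fold of the length of Atp2a2 the median was 0.08, and 803 fell at that adjusted p (28.8%). Atp2a2 had the 229th largest fall of the 2787. The part of transcript length in the fall of Ryr2 was not tested.

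**Figure D4:**
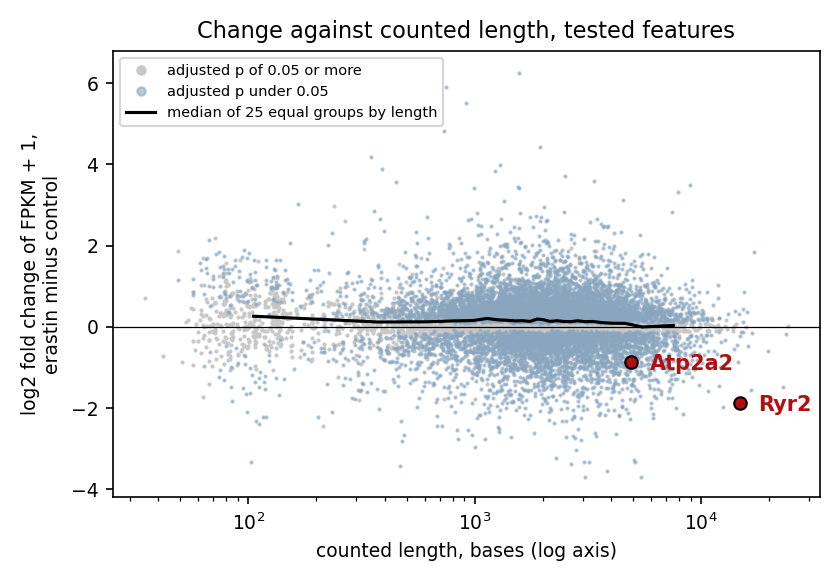
Log2 fold change of FPKM + 1 (erastin minus control) against counted length in bases (log axis) for the tested features, coloured as in the plot by level, with a black line through the medians of 25 equal groups by length. The line stays near 0 to the right, while Ryr2 (14805 bases) lies at -1.87 and Atp2a2 (4919 bases) at -0.87.

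The gene models bear on what was counted. RefSeq lists 20 transcripts for Ryr2, of which 2 are curated mRNAs and 2 are noncoding. For Atp2a2 it lists 3, of which 2 are curated mRNAs and 1 is noncoding. The table gives 1 value per gene, so isoforms of RyR2 or the cardiac and ubiquitous forms of SERCA2 were not separated. In RefSeq no other gene overlaps Atp2a2, while a pseudogene and a long noncoding RNA overlap Ryr2. Overlap here is of whole gene spans, and whether exons or strands are shared was not checked. The libraries marked strand, but how reads were assigned where genes overlap is not given in the sources used here. Reads from these 2 overlapping genes may therefore be part of the Ryr2 value.

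The transcripts most like each gene were sought by profile over the 6 libraries among features with a mean of at least 10 FPKM. Likeness was the root mean square difference of log2(FPKM + 1) after subtracting each feature's own mean. Nearest to Ryr2 was ENSRNOG00000020246, at a difference of 0.040, which went from 511 ± 29.1 FPKM to 137 ± 5.24 FPKM with erastin (SD, n = 3). Nearest to Atp2a2 was ENSRNOG00000043199, at a difference of 0.017, which went from 113 ± 1.53 to 62.4 ± 3.60 FPKM (SD, n = 3). Of 7593 other features, 24 lay within 0.1 of Ryr2 and 205 within 0.1 of Atp2a2. The pair itself differed by 0.504, and Atp2a2 ranked 408th in nearness to Ryr2, while Ryr2 ranked 3369th in nearness to Atp2a2. The groups differ more than the libraries within them, so this measure weighs the size of the fall with erastin most.

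The falls of both genes held under each of 17 other settings of the analysis. The settings of filter, prior and replicate block leave a gene's log2 fold change unchanged by construction and vary only its error and adjusted p. The log2 fold change lay between -2.04 and -1.82 for Ryr2 and between -1.01 and -0.81 for Atp2a2, with no limma adjusted p above 1.07e-05 and 7.38e-05.

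**Figure D5:**
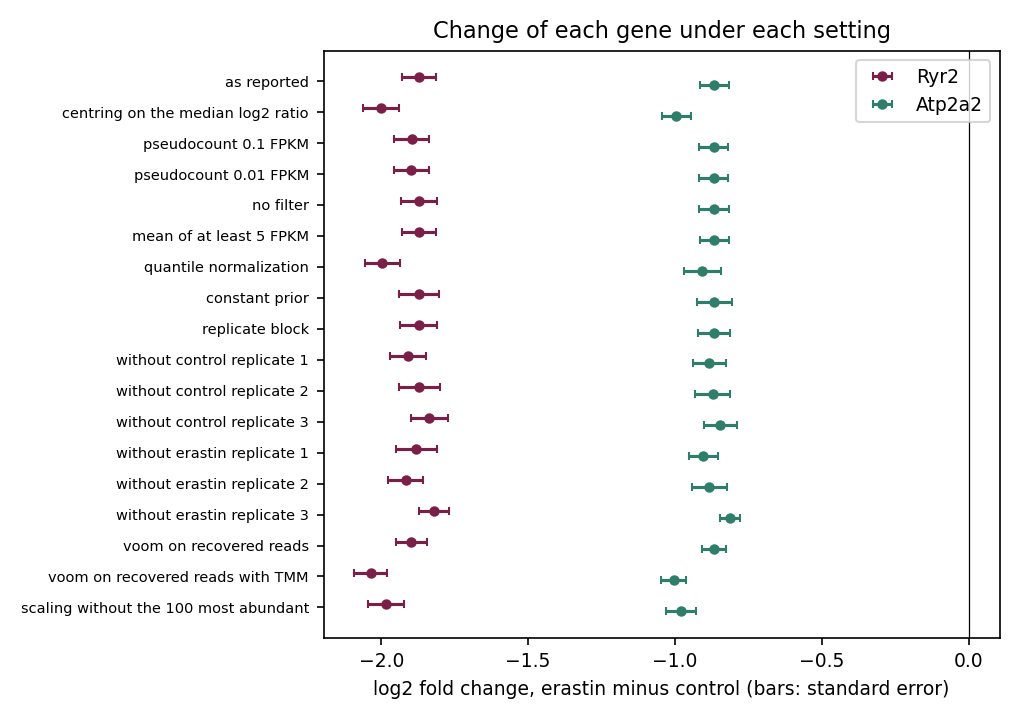
Log2 fold change (erastin minus control, horizontal axis) of Ryr2 and Atp2a2 as reported and under 17 other settings, 1 setting a line, with bars for the standard error. All Ryr2 points lie between -2.04 and -1.82 and all Atp2a2 points between -1.01 and -0.81, so the 2 genes stay apart under each setting. The lines for filter, prior and replicate block repeat the reported value by construction.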

How the data were processed

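RNA of 3 control and 3 erastin libraries, grouped by title, was analysed from 1 table of FPKM that the authors deposited. Per the labels' protocols, poly(A) RNA went into libraries with dUTP strand marking and paired-end sequencing. The submitters' processing notes list HISAT2 2.0.5 and DESeq2 without saying what each did. The counter, the genome build and the gene models were not given in the sources used here. FPKM is scaled to the library total, so changes in abundant features shift all others.

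Features reaching 1 FPKM in 3 or more libraries entered limma 3.58.1 (R 4.3.3) on log2(FPKM + 1), a scale that understates changes of low features, with a trended, robust prior and Benjamini-Hochberg adjustment over 13576 features. Reads and counted lengths were recovered from the steps of the FPKM (Python 3.11.15, numpy 2.4.6, pandas 2.3.3). In every library the recovered reads summed to slightly less than the library total, such as 11465288 against 11508364 in control replicate 1. The recovered reads of some features may therefore be too low. For Ryr2 and Atp2a2 the recovered reads lay within 3.44e-05 of whole numbers. Each length was the smallest that gave near-whole reads in every library, so this closeness is no independent check. Counting errors cover counting only and would be larger if both reads of a pair were counted. Recovery and test were tried on simulated data in which only a small share of features changed, unlike here. That trial cannot show how the test behaves where most features change. The genes, lists and tests were chosen with earlier results of these data known. Named features are the 2 genes and the nearest profile of each. The reference table matched 0 of 34052 identifiers, so the calcium handling and marker lists were not analysed here. Both genes' names come from the choice of identifiers, and the promoters were matched by symbol. Alternatives covered scaling, pseudocount, filter, prior, replicate block, each library left out, and limma's voom on recovered reads. Figures used matplotlib 3.10.9.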

Additional observations from a re-analysis of the deposited data

How the results depend on the processing

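Ryr2, Atp2a2 and their ratio kept their direction under every alternative run, and both genes kept an adjusted p under 0.05 in limma. Leaving out 1 library gave log2 fold changes of -1.92 to -1.82 for Ryr2, -0.90 to -0.81 for Atp2a2 and -1.03 to -0.98 for the log2 ratio of Ryr2 to Atp2a2, and 8064 to 8335 changed features against 9011. A minimum absolute log2 fold change of 1 left 1344 changed features by construction, Ryr2 among them. Voom with TMM library sizes gave the largest falls, -2.04 for Ryr2 and -1.01 for Atp2a2. Scaling without the 100 most abundant features gave -1.98 and -0.98. The calcium handling lists could not be run. Depth did not limit either gene, and 3 libraries a group limit the exact tests to p = 0.1.

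A replicate block cannot change a log2 fold change or the mean ratio in this balanced design. The values of -1.87 for Ryr2, -0.87 for Atp2a2 and -1.01 for the ratio therefore stood by construction. With the block the limma adjusted p was 1.07e-05 for Ryr2 and 7.38e-05 for Atp2a2, and 8768 features changed. The labels do not pair the libraries. Deviations of same-numbered libraries correlated across features at -0.03, 0.07 and 0.03, and those of different numbers at -0.07 to 0.04, and not every library correlated best with its own number.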
